A study of Mus musculus with 4 samples.

Results

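The genes described here are the GM-CSF receptor and STAT5 axis in alveolar macrophages (AMs), the macrophages that live in the airspaces of the lung. They are 10 of the 20923 protein-coding genes of the curated RefSeq annotation: Csf2ra, Csf2rb, Csf2rb2, Stat5a, Stat5b, Jak2, Cish, Socs2, Pim1 and Bcl2l1. For each gene, SMAD4 peaks were taken whose summit lay in the gene body or within 50 kb of a transcription start site (TSS) of the gene. This gave 19 of the 16369 peaks of replicate 1 and 34 of the 19015 peaks of replicate 2. Where a peak of replicate 1 and a peak of replicate 2 had at least 1 bp in common, they were joined into a shared region, and 15 of the 10964 shared regions lay at these genes.

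The AMs came from bronchoalveolar lavage of wild-type C57BL/6J mice, 9 weeks old by the study's methods, and were stained, fixed with formaldehyde and then sorted by flow cytometry in aliquots of 200000 cells. SMAD4 binding was mapped by HT-ChIPmentation, that is, immunoprecipitation of sheared chromatin followed by adapter insertion with a transposase while the DNA is still bound to the beads. A mixture of SMAD4 antibodies was used, for which the sources name different suppliers. There were 2 SMAD4 libraries and 2 inputs of the same cell type. There was no second genotype or treatment, and nothing states that the libraries came from separate animals, so the spread between the replicates may be technical. All values below are therefore descriptions, with no test between conditions.

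GM-CSF binds a receptor made of the ligand-specific alpha chain encoded by Csf2ra and the beta chain encoded by Csf2rb, which the IL-3 and IL-5 receptors also use. The mouse has a neighbouring paralogue, Csf2rb2, whose product serves the IL-3 receptor. The kinase JAK2, bound to the beta chain, phosphorylates STAT5A and STAT5B, which then enter the nucleus and bind DNA. Known STAT5 targets include the feedback inhibitors Cish and Socs2, the survival kinase Pim1 and Bcl2l1, which encodes the anti-apoptotic protein BCL-XL. AMs depend on GM-CSF and on TGFβ, and SMAD4 is the common partner of the SMAD proteins that TGFβ receptors activate. The comparison asks where, at the genes of the GM-CSF pathway, SMAD4 peaks were found in AMs.

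Of the 10 genes, 8 had a shared region by this rule, and 39.1% of all protein-coding genes did. The same regions can count for neighbours: 7 of the 15 lay within reach of a pair of members, Csf2rb with Csf2rb2 or Stat5a with Stat5b, so that 15 regions gave 22 pairs of gene and region. By the stricter criterion of the nearest TSS, 5 genes held at least 1 shared region (Csf2ra, Csf2rb, Stat5b, Jak2 and Pim1), beside 21.5% of all protein-coding genes. For Csf2rb2, Stat5a and Cish, every shared region lay closer to the TSS of another gene. Socs2 and Bcl2l1 had peaks of replicate 2 alone. The members had a median body length of 24.2 kb, against 16.8 kb for all protein-coding genes. Every shared region of a member lay within 50 kb of a TSS of that gene, so the gene-body part of the rule added none.

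**Figure D1:**
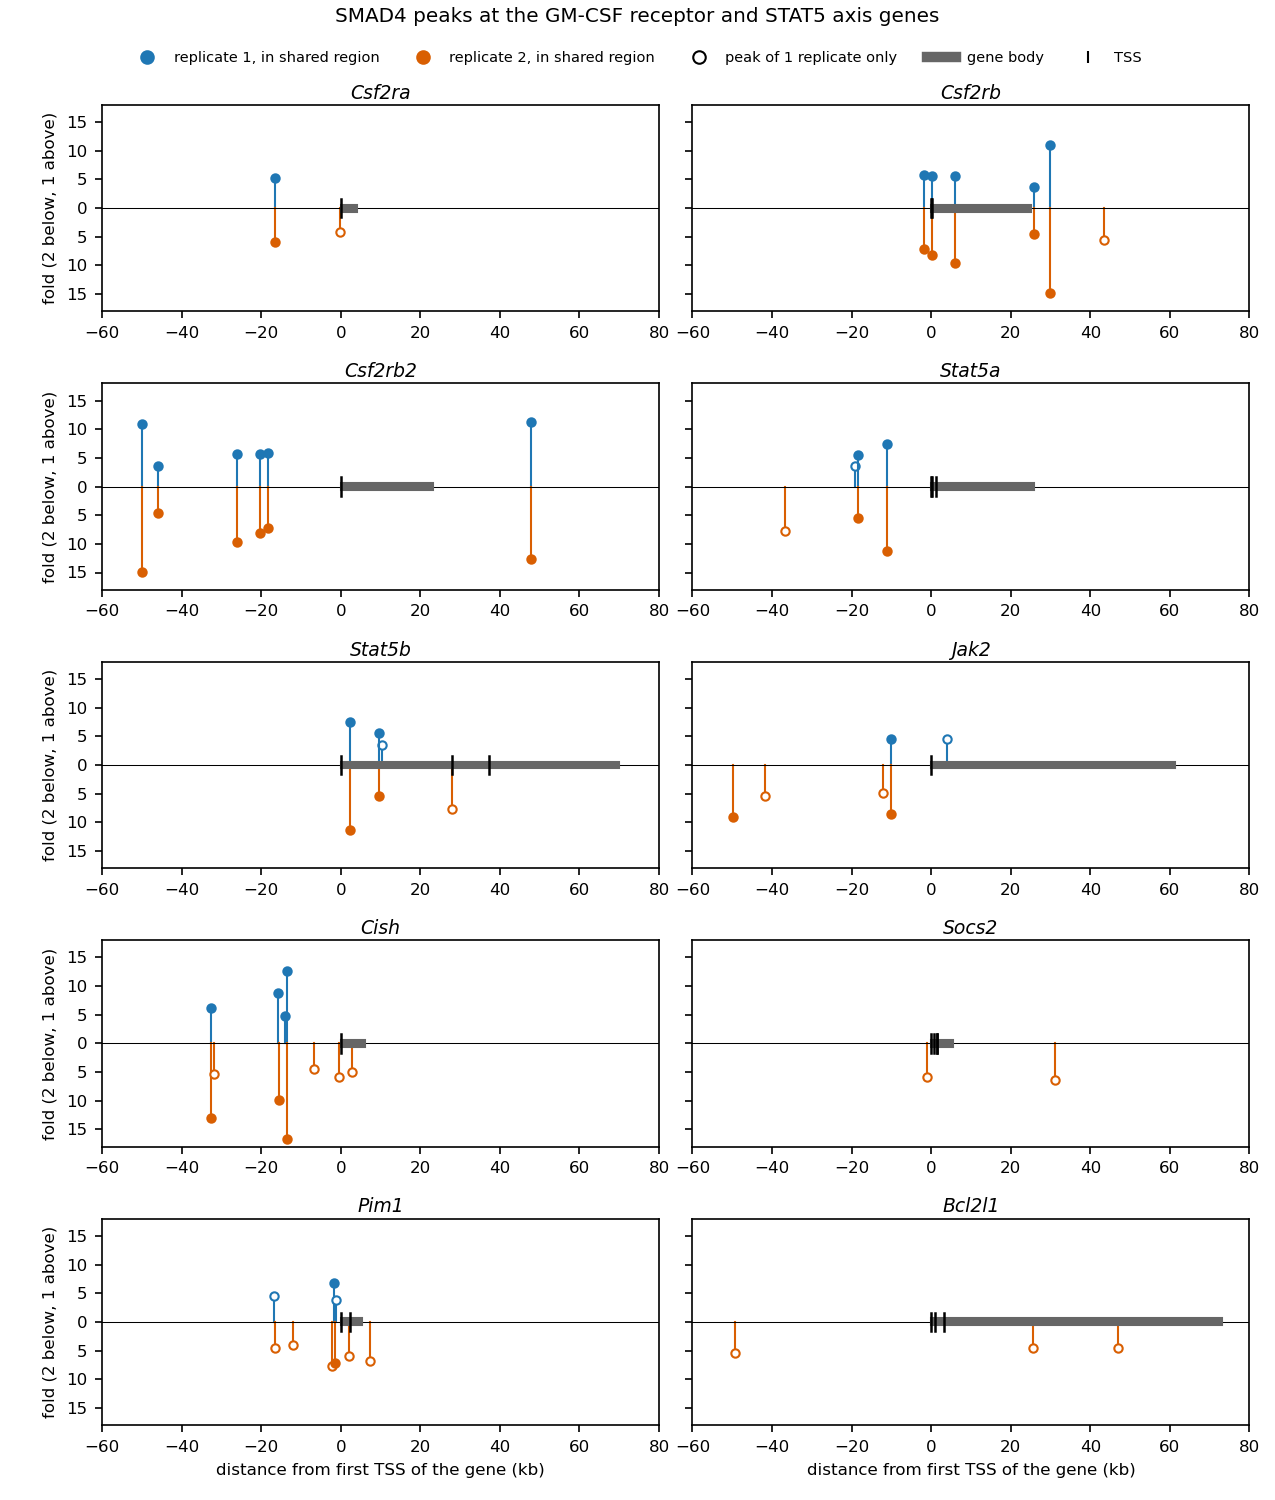
SMAD4 peaks at each of the 10 genes, placed by the distance of the summit from the first TSS of the gene in the direction of transcription (kb), with fold over control upward for replicate 1 and downward for replicate 2. Filled points belong to shared regions, open points are peaks of 1 replicate only, grey bars are gene bodies and black ticks are TSSs. Csf2rb has 5 shared regions and Csf2rb2 has none inside its body, while Socs2 and Bcl2l1 have open points of replicate 2 only.

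The sequences at the summits show what the regions hold. The Csf2rb promoter is printed because it carries the STAT string of the set, together with its counterpart at Csf2rb2, where no peak was called. Capitals mark a STAT string (TTCNNNGAA), a CEBP string (TTGCNNAA) and a PU.1 string (GAGGAAGT), each searched on both strands. The sequences run 5′ to 3′ on the strand of the gene in mm10. The Csf2rb stretch ends at the base before the second TSS and starts after an upstream exon of another transcript.
Csf2rb upstream of the second TSS, chr15:78325910-78325989, plus strand: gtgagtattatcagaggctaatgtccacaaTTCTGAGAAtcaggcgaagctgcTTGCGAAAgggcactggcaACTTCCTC
Csf2rb2 upstream of its TSS, chr15:78305722-78305766, minus strand: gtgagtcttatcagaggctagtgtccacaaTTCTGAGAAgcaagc
Csf2rb2 site in the first exon, chr15:78305687-78305713, minus strand: ttgtgaaagggcactggcaACTTCCTC

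Over the 80 bases of the Csf2rb stretch, 74 were identical at Csf2rb2, with 6 substitutions and no gap. Counted from 1 at the 5′ end of the Csf2rb stretch, the substitutions were A7C, A21G, T40G, G43A, G46A and C57T. The last falls inside the CEBP string, which the Csf2rb2 copy therefore lacks, while the STAT and PU.1 strings stand in both. Whether this substitution bears on the lack of a peak at Csf2rb2 was not tested.

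The next sequences are windows of 201 bases centred on the summits of 7 other shared regions, each on the plus strand of mm10. Capitals mark the STAT, CEBP and PU.1 strings, the SMAD string CAGAC, the AP-1 string TGANTCA, the RUNX string TGTGGT and the ETS string CAGGAAGT. The set holds the only shared region of Csf2ra, the strongest regions near Csf2rb, Stat5b and Cish, the regions with an AP-1 string overlapping a CAGAC string (Jak2) and with 4 CAGAC strings (Cish), and the shared region of Pim1.
Csf2ra, upstream, chr19:61244776-61244976: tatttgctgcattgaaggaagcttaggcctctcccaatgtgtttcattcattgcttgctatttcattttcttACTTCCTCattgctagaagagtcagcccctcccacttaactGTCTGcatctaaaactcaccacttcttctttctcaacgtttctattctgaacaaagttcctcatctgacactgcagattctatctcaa
Csf2rb, downstream of the gene, chr15:78355591-78355791: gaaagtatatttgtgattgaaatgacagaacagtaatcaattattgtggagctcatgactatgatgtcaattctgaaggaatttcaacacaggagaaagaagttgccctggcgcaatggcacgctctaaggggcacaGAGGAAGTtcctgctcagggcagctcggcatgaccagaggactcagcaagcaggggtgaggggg
Stat5b, intron 1, chr11:100848129-100848329: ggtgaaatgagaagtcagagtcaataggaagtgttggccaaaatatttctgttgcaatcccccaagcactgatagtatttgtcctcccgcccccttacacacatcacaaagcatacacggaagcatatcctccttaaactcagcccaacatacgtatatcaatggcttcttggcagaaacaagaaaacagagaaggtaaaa
Jak2, upstream, chr19:29241555-29241755: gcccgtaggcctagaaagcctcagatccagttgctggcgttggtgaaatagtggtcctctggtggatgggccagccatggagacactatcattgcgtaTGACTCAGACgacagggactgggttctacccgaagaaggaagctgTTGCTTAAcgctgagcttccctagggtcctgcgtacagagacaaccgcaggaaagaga
Cish, upstream in Mapkapk3, chr9:107280907-107281107: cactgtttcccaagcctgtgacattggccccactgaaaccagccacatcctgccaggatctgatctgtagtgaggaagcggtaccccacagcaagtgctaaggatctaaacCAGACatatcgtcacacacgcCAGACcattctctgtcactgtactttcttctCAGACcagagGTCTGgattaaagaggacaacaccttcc
Cish, upstream in Mapkapk3, strongest region, chr9:107283115-107283315: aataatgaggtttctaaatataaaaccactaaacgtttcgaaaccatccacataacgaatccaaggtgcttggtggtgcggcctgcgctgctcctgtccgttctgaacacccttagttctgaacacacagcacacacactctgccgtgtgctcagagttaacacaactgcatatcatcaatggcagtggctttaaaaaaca
Pim1, upstream, chr17:29489096-29489296: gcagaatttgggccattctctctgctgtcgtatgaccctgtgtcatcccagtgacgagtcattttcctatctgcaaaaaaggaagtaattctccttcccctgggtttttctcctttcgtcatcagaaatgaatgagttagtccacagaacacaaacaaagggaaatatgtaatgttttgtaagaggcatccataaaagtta

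Each deposited peak carries a fold, the summit pileup (the number of stacked fragments) plus 1 over the control level plus 1. The pileup and the control level were solved from the fold and the p-value, and each pileup is given with its exact Poisson 95% interval, which covers counting error only. The usual control level was 2.08 fragments in replicate 1 and 1.22 in replicate 2. The smallest summit pileup of any peak was 9 fragments in replicate 1 and 7 in replicate 2. The lists hold no value where no peak was called, so that a gene without a peak has no measured level here.

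At Csf2ra, which encodes the alpha chain, SMAD4 peaks were few and weak. The only shared region, chr19:61244804-61244976, lay between genes 16.5 kb upstream of the TSS, with Csf2ra as the nearest gene. Its fold was 5.20 in replicate 1, from 15 fragments (8.40 to 24.7), and 5.87 in replicate 2, from 12 fragments (6.20 to 21.0). Both values were below the middle of their lists, at percentiles 43.7 and 37.5 of all peaks by fold. A CAGAC string began 13 bp from the summit and a PU.1 string 28 bp from it on the other side. Replicate 2 alone had a peak at the Csf2ra promoter, with its summit 73 bp upstream of the TSS, a fold of 4.19 and 9 fragments (4.12 to 17.1).

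Csf2rb, the gene of the common beta chain, had the most shared regions nearest to a member. Its 5 shared regions lay upstream, at the promoter, in intron 2 of 14, at the 3′ end and downstream. The promoter region, chr15:78325782-78326141, had its summit 30 bp upstream of the second TSS, and it was the only shared region of the 15 in a promoter. Its fold was 5.67 in replicate 1 (18 fragments, 10.7 to 28.4) and 8.12 in replicate 2 (17 fragments, 9.90 to 27.2). The replicates placed this summit 12 bp apart. In the printed sequence the CEBP string begins 3 bp from the summit, the STAT string 20 bp before it and the PU.1 string 22 bp after it.

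The region upstream of the promoter, chr15:78323826-78324094, lay 1.85 kb before the TSS. Its folds were 5.85 (17 fragments, 9.90 to 27.2) and 7.22 (15 fragments, 8.40 to 24.7). The intron region, chr15:78331588-78331880, lay 5.72 kb after the TSS. It had a fold of 5.67 in replicate 1 (18 fragments, 10.7 to 28.4) and 9.63 in replicate 2 (22 fragments, 13.8 to 33.3). These 3 regions around the Csf2rb start were thus of a like size, with overlapping intervals within each replicate.

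The regions at the far end of Csf2rb differed more. The one at the 3′ end of the gene, chr15:78351463-78351880, was the weakest of the 15, with folds of 3.63 (14 fragments, 7.65 to 23.5) and 4.56 (12 fragments, 6.20 to 21.0). Its control level, 3.14 fragments in replicate 1 and 1.85 in replicate 2, was above the usual one in both. The region downstream of the gene, chr15:78355322-78355886, was the strongest of the 5, with 11.0-fold enrichment in replicate 1 (33 fragments, 22.7 to 46.3) and 14.9-fold in replicate 2 (32 fragments, 21.9 to 45.2). The replicates placed its summit 1 bp apart, 29.7 kb from the Csf2rb TSS. For both regions the nearest TSS was that of the microRNA gene Mir7676-2, which lies inside Csf2rb, and the nearest protein-coding TSS was that of Csf2rb.

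Csf2rb2, the gene of the IL-3 receptor beta subunit, had no peak of either replicate in its body of 23.2 kb or at its promoter. By the 50 kb rule it had 6 shared regions. Of these, 5 were the regions of Csf2rb, at distances of 18230 to 49970 bp from the Csf2rb2 TSS. The sixth, chr15:78257586-78258576, lay in intron 7 of 9 of Ncf4, which encodes a subunit of the phagocyte NADPH oxidase, with the Ncf4 TSS the nearest. It was a strong region, with folds of 11.3 (37 fragments, 26.1 to 51.0) and 12.6 (27 fragments, 17.8 to 39.3). This region lay 47872 bp from the Csf2rb2 TSS, so that it and the region downstream of Csf2rb were just inside the 50 kb limit. The next shared region, 57.9 kb away, also had Ncf4 as its nearest gene, with folds of 6.17 and 6.32.

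Csf2rb and Csf2rb2 are alike in part of their sequence, and the authors kept only reads of high mapping quality. Of the windows of 50 bases in the Csf2rb2 body, 15.6% occurred unchanged in Csf2rb. In the other direction the share was 14.4% of the windows in the Csf2rb body. The 3 regions around the Csf2rb start have close copies at matching places of Csf2rb2. The upstream region aligned over 269 bp at 96.7% identity to a copy 1364 bp upstream of the Csf2rb2 TSS. The promoter region aligned over 362 positions at 93.1% to a copy centred 3 bp from that TSS, and the intron region over 185 bp at 90.3% to a copy 5554 bp after it. No peak of either replicate overlapped any of these copies. The copy of the upstream region held 1 CEBP string and 2 CAGAC strings, and that of the intron region held 2 CAGAC strings. The longest identical runs between region and copy were 60, 64 and 28 bp, and 5%, 7.07% and 0% of the 50-base windows of these regions occurred unchanged elsewhere in the locus. What part the mapping filter had in the difference between the paralogues was not tested.

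Jak2 encodes the kinase of the receptor. Its 2 shared regions lay upstream of the gene, between genes, with Jak2 as the nearest TSS. The nearer, chr19:29241534-29241853, lay 10.1 kb before the TSS, with folds of 4.55 in replicate 1 (13 fragments, 6.92 to 22.2) and 8.57 in replicate 2 (18 fragments, 10.7 to 28.4). Its summits were 12 bp apart, and the AP-1 string and the CAGAC string that overlaps it both begin within 3 bp of the mean summit. The farther region, chr19:29201686-29202053, sat on the limit of the rule: the summit of replicate 2 was 49881 bp from the TSS and that of replicate 1 was 50013 bp. Its folds were 7.80 (23 fragments, 14.6 to 34.5) and 9.02 (19 fragments, 11.4 to 29.7). Inside the gene there was a single peak, of replicate 1, in intron 1 of 23, with a fold of 4.55 and 13 fragments. Replicate 2 alone had peaks 41728 bp and 12100 bp upstream, with folds of 5.41 and 4.96.

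Stat5a and Stat5b, the genes of the 2 STAT5 proteins, are neighbours on chromosome 11, and all of their peaks lay in Stat5b. Both shared regions were in Stat5b intron 1 of 18. The stronger, chr11:100848030-100848366, was 2.35 kb after the first Stat5b TSS, with folds of 7.47 (22 fragments, 13.8 to 33.3) and 11.3 (24 fragments, 15.4 to 35.7). None of the strings searched stood in its window. The weaker, chr11:100840859-100841136, was 9.61 kb after the TSS, with folds of 5.52 (16 fragments, 9.15 to 26.0) and 5.41 (11 fragments, 5.49 to 19.7), the only region of the 15 with a lower fold in replicate 2. It held a CEBP string 15 bp from the summit. From the nearest Stat5a TSS these regions were 11122 and 18376 bp away, and Stat5a had no peak in its own body in either replicate.

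An internal promoter of Stat5b carried a peak of replicate 2 alone, at chr11:100822592-100822741, with its summit 84 bp upstream of a TSS. Its fold of 7.67, from 16 fragments (9.15 to 26.0), was level with the highest among the unshared peaks at the members. The nearest peak of replicate 1 lay 17470 bp away. Between Stat5a and Stat5b, 4.22% of the 50-base windows of Stat5a and 1.56% of those of Stat5b were identical.

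Among the known STAT5 targets, Cish had the strongest shared region within 50 kb, though its regions were all nearest to another gene. The other targets had stronger ones beyond that limit, among them a region 55.1 kb from Pim1 with folds of 17.5 and 19, nearest to Gm26885. The 3 shared regions of Cish all lay in intron 1 of 7 of Mapkapk3 and were nearest to the Mapkapk3 TSS. Mapkapk3 encodes a kinase activated by MAP kinases. The region closest to Cish, chr9:107282690-107283501, was the strongest of all 15, 12.7-fold in replicate 1 (38 fragments, 26.9 to 52.2) and 16.7-fold in replicate 2 (39 fragments, 27.7 to 53.3). It lay 13444 bp upstream of the Cish TSS and 6181 bp from that of Mapkapk3, and replicate 1 had called it as 2 peaks. The region chr9:107280352-107281203 had folds of 8.77 (26 fragments, 17.0 to 38.1) and 9.96 (32 fragments, 21.9 to 45.2). Its control level in replicate 2, 2.31 fragments, was above the usual one, and its window holds the 4 CAGAC strings printed above. The third, chr9:107263910-107264407, had the largest gap between replicates, 6.17-fold (18 fragments, 10.7 to 28.4) against 13.1-fold (28 fragments, 18.6 to 40.5), though the intervals of the pileups overlapped. It held CEBP, AP-1 and RUNX strings.

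At Cish itself, peaks came from replicate 2 alone. One lay in the promoter, chr9:107296040-107296268, with its summit 502 bp upstream of the TSS, a fold of 5.87 and 12 fragments (6.20 to 21.0). The other lay in intron 1 of 1, with a fold of 4.96 and 10 fragments (4.80 to 18.4). The Cish start site holds a pair of STAT strings within 20 bases, shown because STAT5 is a known regulator of the gene.
Cish start site, chr9:107296659-107296678, plus strand: TTCCTGGAAagTTCTTGGAA
No peak of either replicate covered it. In the RefSeq promoter set (GRCm38.p6, 250 bases before to 50 after a TSS) 8.3% of 32851 sequences held a STAT string. Of the 13 sequences of members there, from 8 genes, 2 did, those of Cish and Csf2rb2. The set held no sequence of Csf2rb or Socs2.

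Pim1, the gene of a survival kinase, had a group of peaks close to its start. The shared region, chr17:29488891-29489387, lay 1.59 kb upstream of the TSS, inside an intron of the noncoding gene Gm26885, and its nearest TSS was that of Pim1. Its folds were 6.82 (20 fragments, 12.2 to 30.9) and 7.22 (15 fragments, 8.40 to 24.7). On either side lay peaks of a single replicate: replicate 2 had a summit 2113 bp upstream of the TSS (7.67-fold, 16 fragments) and replicate 1 a summit 1146 bp upstream (3.90-fold, 11 fragments). These lay 50 bp and 139 bp from the edge of the nearest peak of the other list. Replicate 2 also had a peak 338 bp before the second Pim1 TSS (5.87-fold, 12 fragments) and 1 downstream of the gene (6.77-fold, 14 fragments). Farther upstream, where Gm26885 had the nearest TSS, a peak of replicate 1 (4.47-fold) and a peak of replicate 2 (4.51-fold) stood 83 bp apart without overlap.

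Socs2, the other feedback inhibitor, and Bcl2l1 had no shared region. The Socs2 peaks were both of replicate 2: 1 between genes 29426 bp downstream of a TSS, with a fold of 6.32 and 13 fragments (6.92 to 22.2), and 1 in an intron of 5730420D15Rik, close to the Socs2 start, with a fold of 5.87 and 12 fragments (6.20 to 21.0). Both windows held a STAT string and a CEBP string. At Bcl2l1, replicate 2 had 2 peaks in intron 2 of 2, with folds of 4.60 and 4.51, and 1 in a coding exon of Tpx2, with a fold of 5.41. These ranked between percentiles 9.61 and 28.5 of the replicate 2 peaks. Outside the 50 kb limit the nearest shared regions were stronger, 14.0 and 25.7-fold at 54 kb from Socs2 and 14.6 and 32.9-fold at 86.7 kb from Bcl2l1, where Id1 was the nearest gene.

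Set beside all shared regions, those at the members were of middling strength. Their median fold was 6.17 in replicate 1 and 9.02 in replicate 2, against 6.82 and 9.48 over all 10964. By the smaller of the 2 folds they ranked between percentiles 2.2 and 86.6 of all shared regions, with a median of 45, and none was in the top 10%. The fold was higher in replicate 2 in 14 of the 15, and in 87.2% of all shared regions. The usual control level was lower in replicate 2, at 1.22 fragments against 2.08. The median summit pileup at the members was 18 fragments in replicate 1 and 19 in replicate 2. The ratio of folds between replicates had a median of 1.26 at the members and 1.39 over all. Summits of the replicates were 1 to 132 bp apart, with a median of 12 bp, beside 49 bp over all shared regions.

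**Figure D2:**
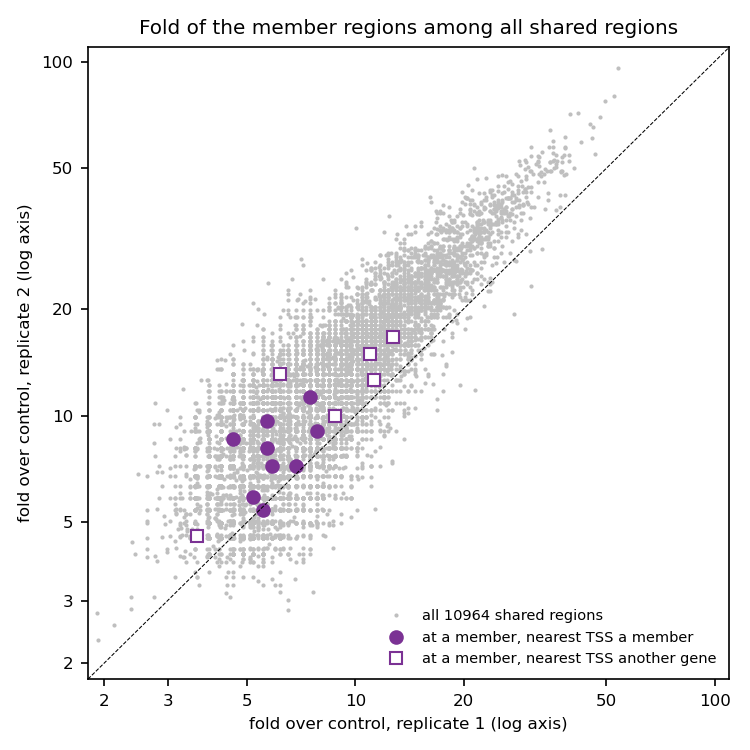
Fold over control in replicate 1 and replicate 2 for all 10964 shared regions (grey) and for the 15 at the members (purple), on log axes, with the line of equal fold dashed. The members' regions lie within the cloud of all regions, from 3.63 and 4.56 to 12.7 and 16.7, and the regions nearest to another gene (open squares) include the strongest.

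**Figure D3:**
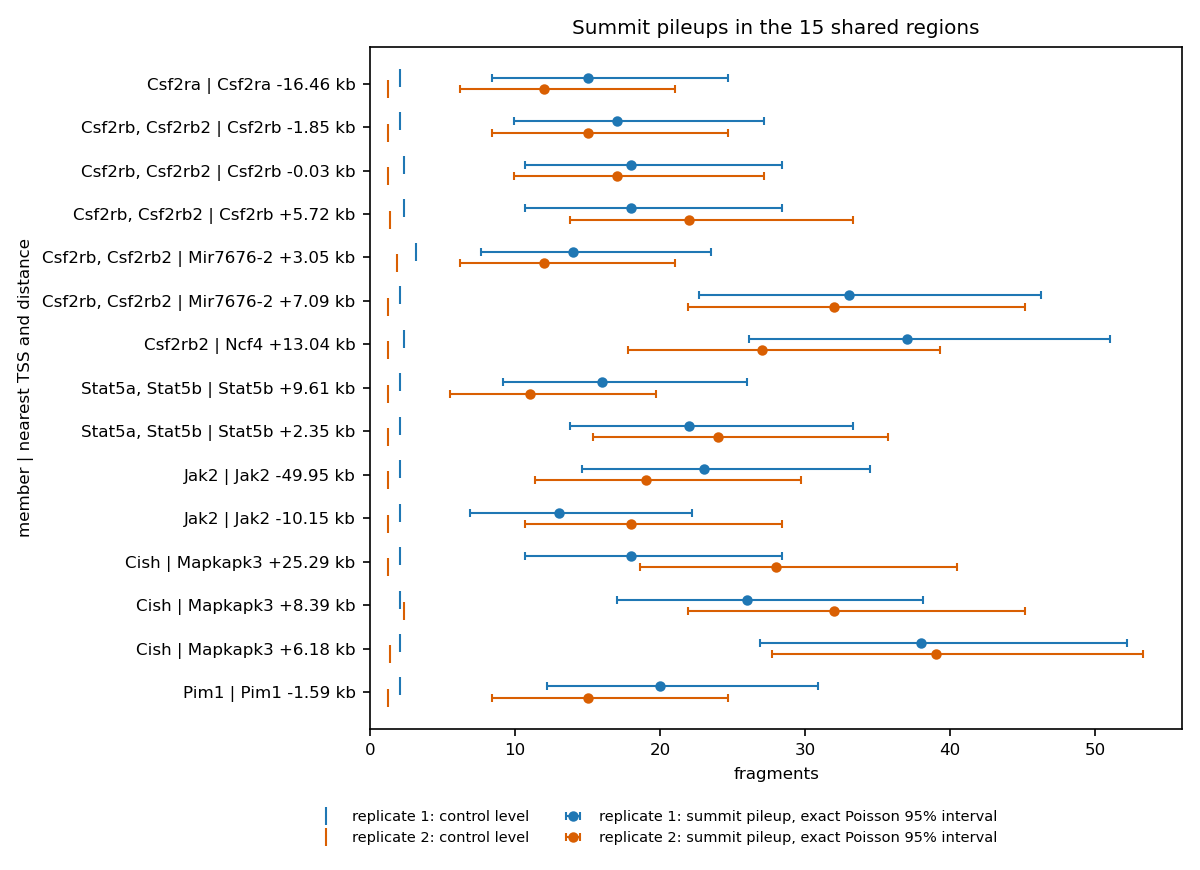
Summit pileup in fragments, with exact Poisson 95% intervals, for the 15 shared regions in both replicates, with the control level as a vertical tick. Each row names the member genes, then the nearest TSS and the distance from it. Pileups are 13 to 38 fragments in replicate 1 and 11 to 39 in replicate 2. Every interval lies above its control level, but the peaks were called against that control, so this adds no support.

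Most peaks without a partner at the members were of replicate 2. In replicate 1, 15 of 19 peaks had a partner in replicate 2 (78.9%, against 69.4% of the whole list). In replicate 2, 15 of 34 did (44.1%, against 59.2%). The 23 unshared peaks had folds of 3.57 to 4.55 in replicate 1 and of 4.06 to 7.67 in replicate 2, where their median, 5.41, equalled that of all unshared peaks of the list. The highest 2, at Stat5b and Pim1 with 7.67-fold each, were at percentile 58.2 of all replicate 2 peaks and above the replicate 2 fold of some shared regions at the members. Only 4 of them lay within 500 bp of a peak of the other list.

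Promoter peaks at the members came mostly from replicate 2. A promoter was taken as 1 kb upstream to 100 bp downstream of a TSS. In replicate 2, 5 members had a promoter peak (Csf2ra, Csf2rb, Stat5b, Cish and Pim1), beside 6.5% of all protein-coding genes. In replicate 1, Csf2rb alone did, beside 3.59%, and it was also the only member with a shared region in a promoter, beside 3.1%. The 4 promoter peaks seen in replicate 2 alone had 9 to 16 fragments. By annotation the 15 shared regions were 8 intronic, 5 intergenic, 1 at a promoter and 1 at a 3′ end. Over all shared regions 49.3% were intronic, 40.5% intergenic, 6.42% at promoters and 1.3% at 3′ ends.

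Consensus strings were counted within 100 bp of the summits and set beside the share of all shared regions that hold them. The STAT string stood in 1 of 15 (6.67%), the Csf2rb promoter, and in 8.04% of all. CAGAC stood in 6 (40%, against 38.8%) and the CEBP string in 6 (40%, against 40.9%). These 3 shares were near the background. The PU.1 string stood in 3 of 15, against 8.02%, and the RUNX string in 2, against 26.3%. The nuclear receptor string AGGTCA stood in none, against 15.4%. With 15 regions, 1 region is 6.67%, and nothing is read from these differences. In 3 regions, at Stat5b, Cish and Pim1, no string of the set was found, and 13.2% of all shared regions had none. Of the 23 unshared peaks, 4 held a STAT string: those in the Cish intron, both at Socs2 and 1 upstream of Pim1. The share of all unshared peaks with a STAT string was not counted, so nothing is read from this number. The longer SMAD string GTCTGG always contains CAGAC on the other strand, so the counts of these strings overlap.

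**Figure D4:**
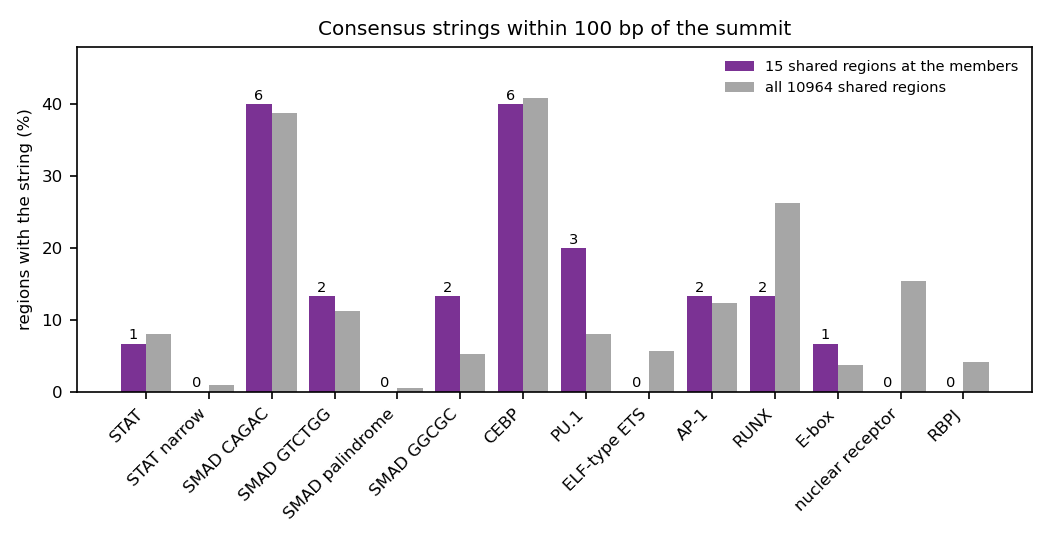
Percent of regions with each consensus string within 100 bp of the summit, for the 15 shared regions at the members (purple, with the number of regions above each bar) and all 10964 shared regions (grey). The CAGAC and CEBP bars are nearly level between the sets, and the STAT bar of the members stands for 1 region.

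A list of 24 other genes of the pathway was treated the same way. It holds ligands, receptor chains, other JAK and STAT genes, phosphatases, adaptors and survival genes. A shared region by the 50 kb rule was found for 12 of 24 (39.1% of all protein-coding genes), and 9 of 24 held the nearest TSS (21.5% of all). The genes of the ligands GM-CSF, IL-3 and IL-5 (Csf2, Il3 and Il5), of the other alpha chains (Il3ra and Il5ra) and of the kinases Jak1, Jak3 and Tyk2 had none. The same held for Socs1, Ptpn11, Sh2b3 and Shc1. Among the regions nearest to a gene of this list, the strongest were at Pik3r1, which encodes a regulatory subunit of PI3-kinase (20.5 and 27.1-fold, 37.6 kb from the TSS), Stat3 (19.5 and 28.0-fold, in intron 1, 1.17 kb from the TSS) and Cbl, the gene of a ubiquitin ligase (17.9 and 33.0-fold, in intron 2). Each of these exceeded the strongest region of the 10 members in both replicates.

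For the labelled cell type, all 10 AM marker genes on the list used here had a shared region by the same rule, beside 39.1% of all protein-coding genes, and 9 held the nearest TSS, beside 21.5%. The rule found 1 of 4 T cell, 1 of 3 B cell, 1 of 3 epithelial and 2 of 3 neutrophil markers. The marker list was chosen with earlier results of these data known, so it is no independent check of the label. A peak near a gene is not expression of that gene, and purity of the sort was not measured here.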

How the data were processed

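The data are the peak lists of both SMAD4 libraries, and the inputs enter only through the control level. The authors trimmed reads with Cutadapt 1.7.1, aligned them to mm10 with Bowtie2, marked duplicates with PICARD, kept properly paired reads of mapping quality above 30 with samtools 0.1.18, and called peaks in each sample against input with MACS3 3.0.0a5, keeping those with a q-value up to 0.05. The submitters' processing notes also name CASAVA and bcl2fastq. For each peak the authors deposited a fold ratio at the summit, a −log10 p, a −log10 q and a score, of which the score was not used.

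Pileups and control levels were solved from fold and p, and all 35384 pileups came out whole within 0.02 fragments. This was tested on simulated data. Sequencing totals were not used, so that pileups carry the depth behind each value. Peaks were merged where they overlapped by at least 1 bp, the summit of a region being the mean of both summits. Genes were 45657 curated RefSeq transcripts of GRCm38, the assembly that mm10 names, and 100% of peak ends lay within its chromosomes. Alignments of the Csf2rb regions were made with blastn 2.17.0 (E-value limit 1e-10), and the rest in Python 3.11.15 with numpy 2.4.6 and scipy 1.17.1. The text names all 10 members, the genes whose TSS was nearest to their regions, and the 3 other pathway genes with the strongest regions. Other pathway genes without a shared region are also named. The members, gene lists and strings were chosen with earlier results of these data known.

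Alternatives were the overlap rule, stricter q or fold, the distance, predicted transcripts, each replicate alone, and the window and form of the STAT string. Replicate numbers were given in accession order.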

Additional observations from a re-analysis of the deposited data

How the results depend on the processing

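The count of members with a shared region (8 of 10) stayed at 8 with 50% reciprocal overlap, summits within 100 bp, a q of at most 0.001, a fold of at least 5 and all RefSeq transcripts. The share of all protein-coding genes under these settings was, in the same order, 34.6%, 34.8%, 38.2%, 33.2% and 39%. The count of members depended on distance: within 10 kb of a TSS it was 3 of 10, with 6 regions, beside 20.6% of all protein-coding genes. Within 100 kb it was 10 of 10, with 28 regions, beside 54.9% of all protein-coding genes. With 1 list alone (leaving out either replicate), 8 to 10 members, 19 to 34 regions and 12 to 19 regions nearest to a member were found, beside 46.6% to 53.4% of all protein-coding genes. The higher counts came without replicate 1. Counted to the nearest protein-coding TSS, a choice made after seeing the data, 15 regions in the whole genome in place of 9 were nearest to a member. Replicate 1 peaks at the members fell from 19 to 12 at a fold of at least 5. Within 10 kb they numbered 9 and within 100 kb 35, and replicate 2 peaks within 10 kb numbered 17. A STAT string was found in 2 of the 15 regions at the members with 200 bp each side, beside 14.9% of all shared regions. The form TTCCNGGAA was found in 0 of them, beside 0.958% of all shared regions. Of the 5 strongest regions, 4 were among the 5 highest by mean percentile. No paired analysis was possible because there was no second genotype or treatment to pair. The labels also give no replicate numbers. Summit pileups of 8 to 39 fragments limit the precision of each value.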
